A study of Mus musculus with 12 samples.

Results

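The 8 genes described here encode subunits of the voltage-gated sodium channels and were measured by RNA-seq in the visual thalamus (dLGN) of newborn mice lacking either of 2 transcription factors. They were chosen by symbol from the 24480 genes of each table: *Scn1a*, *Scn2a* (listed as *Scn2a1*), *Scn3a*, *Scn8a* and *Scn9a*, which encode the pore-forming alpha subunits, and *Scn2b*, *Scn3b* and *Scn4b*, which encode auxiliary beta subunits. All 8 were present in both tables. Another 6 genes of the family were also listed; of these, 4 were expressed highly enough to be tested in each line and 0 passed the test in either line. The 12 libraries formed 4 groups of 3, each library made from dLGNs of 3 animals pooled at postnatal day 0 (P0). Sox2 mutants were Sox2 flox/flox animals carrying Ror-alphaCre, and their littermate controls were Sox2 flox/flox or Sox2 flox/+ without Cre. Nr2f1 mutants were Nr2f1 flox/flox animals carrying Ror-alphaCre; the label of their controls names both the Cre allele and the absence of Cre, and the study's methods describe them as Nr2f1 flox/flox or flox/+ without Cre. The Cre was expressed from the *Rora* locus and recombines in postmitotic thalamic cells, and cells without it keep the floxed alleles. The comparison asks which subunit genes change their RNA level when *Sox2* or *Nr2f1* is removed from these neurons, each line against its own controls.

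A sodium channel is built around 1 large alpha subunit, which opens when the membrane is depolarized and lets in the sodium current that starts the action potential. The beta subunits are small membrane proteins with an immunoglobulin-like outer domain; they tune the gating of the alpha subunit and help bring it to the surface. In young neurons of the brain Nav1.2 (*Scn2a*) and Nav1.3 (*Scn3a*) are the prominent alpha subunits, and as axons mature Nav1.6 (*Scn8a*) takes over at the axon initial segment and the nodes of Ranvier. Nav1.1 (*Scn1a*) is best known from inhibitory interneurons and Nav1.7 (*Scn9a*) from peripheral sensory neurons.

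The alpha genes *Scn3a*, *Scn2a*, *Scn1a* and *Scn9a* lie in this order on chromosome 2, within 1178 kb (RefSeq positions, build GRCm38.p6). *Scn3a* occupies chr2:65457118-65567591 on the minus strand, *Scn2a* chr2:65620764-65767447 on the plus strand, *Scn1a* chr2:66270781-66440837 and *Scn9a* chr2:66480080-66635114, both on the minus strand. *Scn8a* stands alone at chr15:100869863-101045938 on the plus strand. The beta genes are all on chromosome 9, plus strand, with *Scn2b* (chr9:45117876-45130070) next to *Scn4b* (chr9:45138624-45154155) and *Scn3b* apart from them at chr9:40269216-40291618.

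RefSeq promoter sequences were at hand for 6 of the 8 genes, with 2 starts each for *Scn2a* and *Scn8a*. None was at hand for *Scn3a* or *Scn3b*, so these genes were not searched. The 250 bases upstream of these starts are shown because the RNA ratio of *Scn8a* to *Scn2a1* set Sox2 mutants apart from their controls, as described below. Capitals mark ACAANG, the core of the site bound by SOX proteins, and AGGTCA, the hexamer bound by the receptors NR2F1 and RORα, searched on both strands.
Scn2a, first start, chr2:65620519-65620768, plus strand: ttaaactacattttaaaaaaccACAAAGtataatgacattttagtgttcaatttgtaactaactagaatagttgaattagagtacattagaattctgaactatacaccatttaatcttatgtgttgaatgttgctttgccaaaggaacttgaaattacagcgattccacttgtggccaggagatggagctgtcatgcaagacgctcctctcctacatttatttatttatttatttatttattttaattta
Scn2a, second start, chr2:65668436-65668685, plus strand: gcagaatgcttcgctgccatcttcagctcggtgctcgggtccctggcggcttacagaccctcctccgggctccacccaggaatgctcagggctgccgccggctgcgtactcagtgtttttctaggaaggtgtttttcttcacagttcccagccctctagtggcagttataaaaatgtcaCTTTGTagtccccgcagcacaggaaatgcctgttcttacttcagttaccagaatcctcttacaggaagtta
Scn8a, first start, chr15:100870395-100870644, plus strand: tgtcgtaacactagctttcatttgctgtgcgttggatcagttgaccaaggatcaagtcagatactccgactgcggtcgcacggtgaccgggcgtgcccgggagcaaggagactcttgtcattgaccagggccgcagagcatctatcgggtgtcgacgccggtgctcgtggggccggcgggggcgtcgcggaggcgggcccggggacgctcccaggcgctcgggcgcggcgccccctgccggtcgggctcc
Scn8a, second start, chr15:100936021-100936270, plus strand: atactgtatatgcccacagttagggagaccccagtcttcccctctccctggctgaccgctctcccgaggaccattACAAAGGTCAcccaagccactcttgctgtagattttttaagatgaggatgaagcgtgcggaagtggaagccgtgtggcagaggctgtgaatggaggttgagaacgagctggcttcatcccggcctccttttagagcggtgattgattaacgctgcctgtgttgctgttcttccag

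The sequences upstream of the first starts of *Scn2a* and *Scn8a* differed widely in base composition. G and C made up 29.6% of the bases at the first *Scn2a* start, with 2 CG dinucleotides, and 68% at the first *Scn8a* start, with 30 CG dinucleotides. The second starts of both genes had 53.2% G and C and 9 CG dinucleotides each, close to the median of 52.4% over all 32851 promoters. ACAANG occurred upstream of both *Scn2a* starts, 228 and 71 bases from the start, and once at the second *Scn8a* start, where it overlapped the single AGGTCA. Over the 8 promoters of the 6 genes, ACAANG was found in 4, the other being that of *Scn9a*, against 36.3% of all promoters. AGGTCA was found in 1 of the 8, against 14% of all promoters. TTCAGCACC, the left arm of the site bound by the repressor REST, was found in 0 of the 8 and in 0.301% of all promoters.

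Total counts ranged from 39293465 to 50095344 per library, which gave each of the 8 genes except *Scn4b* at least 464 counts in every library. *Scn4b* had between 5 and 39 counts. Levels are given as CPM, counts scaled to library size with the TMM factors of edgeR. The targeted genes were reduced but still measured: *Sox2* had 361 to 382 CPM in controls and 116 to 152 CPM in Sox2 mutants, and *Nr2f1* had 311 to 380 CPM in controls and 101 to 151 CPM in Nr2f1 mutants. *Sox2* was also lower in the Nr2f1 line, at 212 to 279 CPM in mutants against 343 to 374 CPM in controls. *Nr2f1* had 221 to 313 CPM in Sox2 mutants and 308 to 345 CPM in Sox2 controls, with overlap. The libraries expressed neuronal markers at high levels, with a summed level of 5845 to 7197 CPM for 8 markers of any neuron over the 12 libraries. The pools differed in sex: *Xist*, the RNA of the inactive X chromosome, was below 1 CPM in Sox2 control 2, Sox2 mutant 1 and Nr2f1 control 3, and the Y-linked *Ddx3y* was at 0 CPM in Nr2f1 mutant 1. Library numbers follow the column order of the tables and do not pair mutants with controls.

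In control dLGN the most abundant subunit RNA per kb of transcript was *Scn3b*, followed by the 2 alpha genes of young neurons. In Sox2 controls the level was 54.7 ± 9.12 CPM per kb for *Scn3b* (SD, n = 3), 24.2 ± 2.84 for *Scn2a1* and 16.7 ± 1.33 for *Scn3a*. *Scn8a* reached 13.2 ± 1.65 CPM per kb in these controls, *Scn9a* 5.30 ± 0.16, *Scn2b* 4.50 ± 0.28 and *Scn1a* 3.67 ± 0.19. *Scn4b* was close to absent, at 0.038 ± 0.019 CPM per kb. Neighbours in this order did not overlap between the 3 Sox2 control libraries. The same order was found in Nr2f1 controls, where *Scn2b* (3.93 to 5.63 CPM per kb) and *Scn1a* (3.92 to 4.58) overlapped. Among the 15470 tested genes with a transcript length, *Scn3b* stood above 90.6% and *Scn2a1* above 77.7% in Sox2 controls, whereas *Scn1a* stood above 35.0%. These levels use the median length of the annotated transcripts; with the longest transcript *Scn8a* dropped to 8.19 CPM per kb and *Scn9a*, at 4.06, fell below *Scn2b* at 4.16.

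Loss of *Sox2* was accompanied by lower RNA of the alpha genes of young neurons, *Scn3a* and, just short of the threshold, *Scn2a1*. *Scn3a* fell to 72.5% of the control level and was the only 1 of the 8 genes called as a differentially expressed gene (DEG), which here means a false discovery rate (FDR) below 0.01 in the quasi-likelihood test of edgeR adjusted over all 15602 genes tested. *Scn2a1* had the larger difference, at 70.2% of the control level, with an FDR of 0.0102. The other 3 alpha genes were not called, and *Scn8a* was on the higher side. Of all genes tested 8.08% were called in this line, and 4.19% were called as lower in mutants, against 1 of the 8 genes. At an unadjusted p under 0.05 there were 4 of the 8, against 35.0% of all genes tested.

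*Scn3a* had 165, 149 and 141 CPM in Sox2 controls 1, 2 and 3, and 107, 122 and 101 CPM in Sox2 mutants 1, 2 and 3. The highest mutant library lay below the lowest control library. The log2 fold change was -0.46 with a standard error (SE) of 0.086 and a 95% confidence interval of -0.66 to -0.27, and the edgeR FDR was 0.00585. The call was lost when Sox2 control 1 (FDR 0.0292), control 2 (0.0257), mutant 1 (0.0222) or mutant 3 (0.0350) was left out, while the log2 fold change stayed between -0.54 and -0.40. It was also lost when the level of Y-linked genes was entered as a covariate (edgeR FDR 0.0187, log2 fold change -0.45), an alternative added after seeing the data.

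*Scn2a1* had 237, 207 and 188 CPM in the Sox2 controls and 144, 167 and 132 CPM in the mutants. Here too the groups did not overlap, and mutant 2 was the highest mutant library for both genes. The log2 fold change was -0.51 (SE 0.11, 95% confidence interval -0.75 to -0.27), which corresponds to 0.595 to 0.829 times the control level. *Scn2a1* passed the threshold in 7 of 14 alternative fits and *Scn3a* in 9 of 14. *Scn2a1* was called when Sox2 control 3 (edgeR FDR 0.00356) or mutant 2 (0.00719) was left out. DESeq2 called both, with FDRs of 9.1e-05 for *Scn2a1* and 3.0e-05 for *Scn3a*.

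The counts of these 2 genes, like those of *Scn1a*, were not whole numbers in any of the 12 libraries, and those of *Scn9a* were not in 11 of 12. The authors' counting divided reads between genes that share sequence, so the split of reads among these 4 alpha genes is uncertain to an extent that was not tested. All 12 values of *Scn8a* and of each beta gene were whole.

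*Scn1a* had 29.8, 31.8 and 28.8 CPM in Sox2 controls and 28.9, 26.0 and 24.4 CPM in mutants. The ranges touched, with mutant 1 just above control 3, and the difference was not called (log2 fold change -0.19, SE 0.088, edgeR FDR 0.160). *Scn9a* varied little, with 41.2, 38.8 and 39.8 CPM in controls and 39.8, 37.2 and 36.3 CPM in mutants (log2 fold change -0.08, SE 0.071, edgeR FDR 0.465). *Scn8a* had 105, 94.4 and 81.7 CPM in controls and 112, 93.6 and 102 CPM in mutants. Its groups overlapped, and the 95% confidence interval of 0.935 to 1.28 times the control level holds both a small decrease and a moderate increase (log2 fold change 0.13, SE 0.10, edgeR FDR 0.398).

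**Figure D1:**
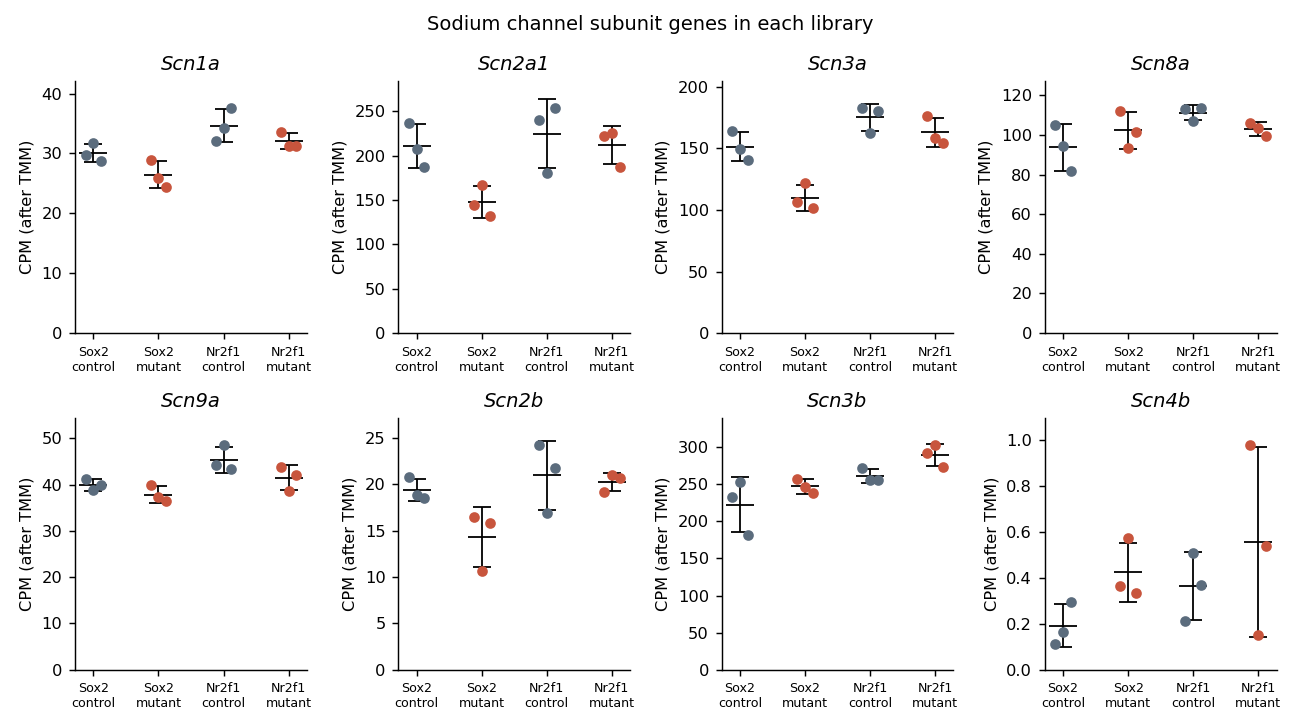
CPM after TMM scaling (y axis, from 0) of the 8 genes in each library, by group; points are libraries, and the horizontal marks and bars are the mean and SD of 3 libraries. *Scn3a* and *Scn2a1* lie lower in the 3 Sox2 mutant libraries than in the 3 Sox2 controls, whereas their Nr2f1 groups overlap.

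None of the beta genes was called in Sox2 mutants. *Scn2b*, whose product is bound to the alpha subunit by a disulfide bond, had 20.8, 18.8 and 18.6 CPM in controls and 16.5, 10.6 and 15.9 CPM in mutants. All mutant libraries lay below the controls, mutant 2 the lowest, and the edgeR FDR was 0.0744 (log2 fold change -0.44, SE 0.15). *Scn3b*, which encodes a beta subunit held without such a bond, had 233, 253 and 181 CPM in controls and 257, 247 and 238 CPM in mutants. The controls spread more widely than the mutants and overlapped them (log2 fold change 0.15, SE 0.11, edgeR FDR 0.367). *Scn4b*, known for its part in resurgent sodium current, had 0.113, 0.166 and 0.296 CPM in controls and 0.365, 0.572 and 0.332 CPM in mutants. The mutant libraries were the higher ones, but at these counts the 95% confidence interval ran from 1.07 to 4.66 times the control level and the edgeR FDR was 0.113.

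Across the family, 5 genes were lower and 3 higher in Sox2 mutants, with a median log2 fold change of -0.13 against 0.00048 over all genes tested. The 2 groups stood apart without overlap for 4 of the 8 genes, *Scn2a1*, *Scn3a*, *Scn2b* and *Scn4b*, against 37.9% of all genes tested. By the exact permutation test these 4 genes reached p = 0.1 (two-sided), below which 3 against 3 libraries cannot go. The p-values measure the spread between pools of animals.

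**Figure D2:**
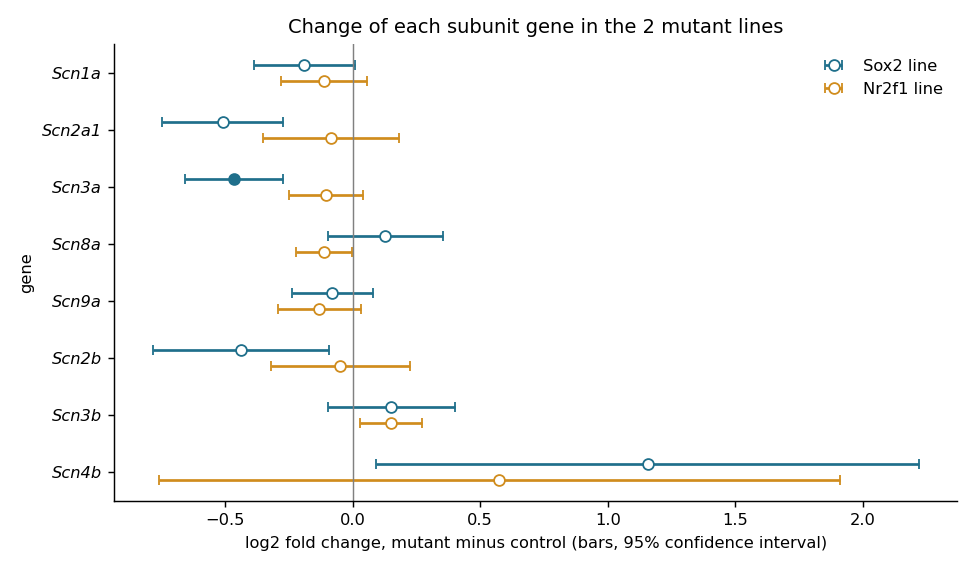
log2 fold change of each gene, mutant minus control (x axis), in the Sox2 and Nr2f1 lines; bars are 95% confidence intervals from edgeR, and filled points mark an FDR below 0.01. The only filled point is *Scn3a* in the Sox2 line, and the intervals of *Scn4b* are the widest.

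The make-up of alpha subunit RNA in Sox2 mutants shifted away from *Scn2a1* and *Scn3a*, with a larger share of *Scn8a*. Taking CPM per kb of the 5 alpha genes together as 100%, the share of *Scn8a* was 20.9% ± 0.73 (SD, n = 3) in controls and 28.0% ± 3.04 in mutants. *Scn2a1* made up 38.3% ± 0.89 in controls and 32.7% ± 2.51 in mutants, and *Scn3a* 26.5% ± 0.46 and 23.4% ± 1.37. For each of these 3 shares the groups did not overlap, and mutant 2 was the library closest to the controls. A two-sided exact permutation test gave p = 0.1, its minimum here. The shares of a library add up to 100%, so they do not vary independently. Their size also depends on the transcript length used, here the median. With the longest transcript *Scn8a* had 8.19 instead of 13.2 CPM per kb in Sox2 controls. In CPM *Scn8a* itself was not called (log2 fold change 0.13, edgeR FDR 0.398) and its groups overlapped. For comparison, the groups did not overlap in CPM for 37.9% of all genes tested. The summed level of the 5 genes was 63.2 ± 5.95 CPM per kb in controls and 51.9 ± 2.94 in mutants.

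The ratio of *Scn8a* to *Scn2a1* within a library does not depend on how libraries are scaled. Per kb of the median transcript length it was 0.545, 0.560 and 0.535 in Sox2 controls and 0.955, 0.687 and 0.945 in Sox2 mutants. The controls agreed closely and all mutants were higher, by 0.64 on the log2 scale on average. Groups apart in CPM were found for 37.9% of all genes tested, as given above. Between *Scn2a1* and *Scn3a*, in contrast, the groups overlapped, with a log2 ratio of 0.53 ± 0.056 in controls and 0.48 ± 0.042 in mutants (SD, n = 3). In the Nr2f1 line the ratio of *Scn8a* to *Scn2a1* was 0.580, 0.729 and 0.550 in controls and 0.585, 0.564 and 0.651 in mutants, with overlapping groups.

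**Figure D3:**
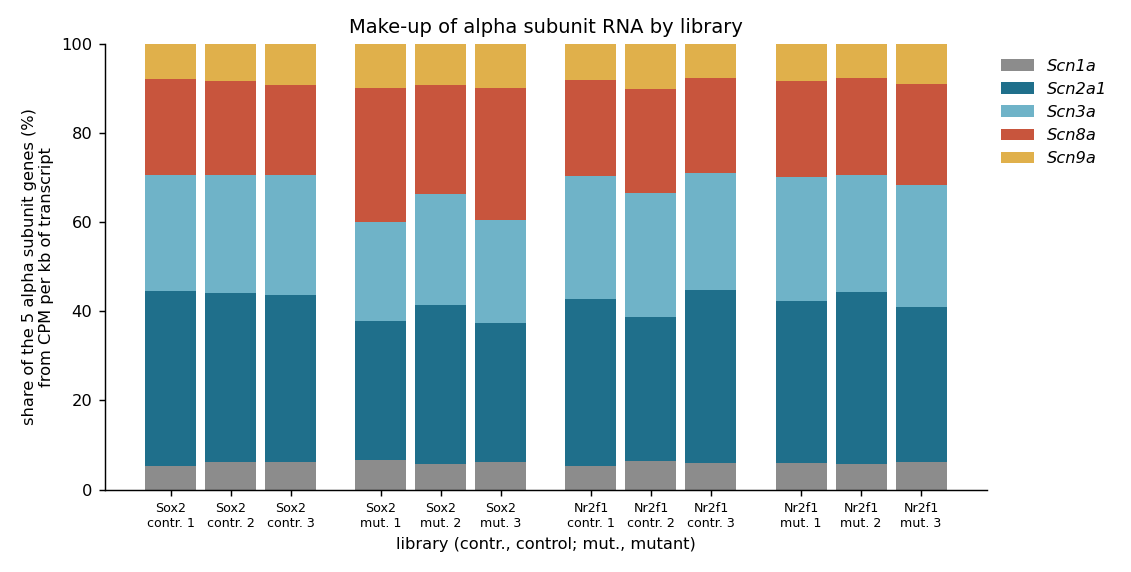
Share of each alpha gene (y axis, %) in the summed CPM per kb (median transcript length) of the 5 alpha genes, 1 bar per library. The *Scn8a* segment takes 20.1% to 21.4% in Sox2 controls and 24.5% to 29.9% in Sox2 mutants, and 21.3% to 23.5% and 21.4% to 22.6% in the Nr2f1 groups.

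The dissected tissue differed in other respects between the Sox2 groups. Of all genes tested 8.08% were called in this line, the share to set beside the marker counts that follow. Of 5 astrocyte markers 4 were called as higher in mutants, with a summed level of 937 to 1091 CPM in controls and 1451 to 1659 CPM in mutants. Of 5 microglia markers 4 were called as higher, with 73.0 to 83.2 CPM in controls and 155 to 174 CPM in mutants. Of 8 markers of any neuron 2 were called as lower, with 5925 to 6985 CPM in controls and 5845 to 6194 CPM in mutants. Among 7 markers of thalamic glutamatergic neurons 4 were called as lower, among them *Rora*, and 1 as higher. Their sum was 1528 to 1965 CPM in controls and 1392 to 1412 CPM in mutants. By the study's methods, the *Rora* locus carries the Cre in mutants only, in both lines. *Rora* averaged 334.6 CPM in Sox2 controls and 85.72 CPM in Sox2 mutants. In the Nr2f1 line it averaged 379.5 CPM in controls and 318.7 CPM in mutants, with overlap and without a call (edgeR FDR 0.204). Its difference between the mutants was called (-1.705, edgeR FDR 0.000118). The study's authors consider a contribution of the Cre insertion unlikely, and it was not tested here. The summed level of 7 markers of GABAergic neurons was 94.4 to 143 CPM in controls and 163 to 217 CPM in mutants, with 0 called. Among 6 markers of the oligodendrocyte lineage 1 was called as lower and 1 as higher, and 0 were called among 4 endothelial and mural and 3 red blood cell markers. The 5 pallial and hippocampal markers summed to 13.4 to 27.3 CPM in controls and 22.5 to 71.8 CPM in mutants, with a median log2 fold change of 1.11 and 0 called. The 4 markers of peripheral sensory neurons summed to at most 5.84 CPM in any library of this line, and 1 of the 3 tested was called as higher. Relative to the summed neuron markers of the same library, the mean log2 level of *Scn2a1* differed by -0.38 between Sox2 mutants and controls that of *Scn3a* by -0.33 and that of *Scn2b* by -0.33. The differences on that scale were 0.27 for *Scn8a*, 0.30 for *Scn3b* and 1.35 for *Scn4b*. The groups did not overlap for these 6 of the 8 genes, against 33.5% of all genes tested on the same scale. The part of these cell type markers in the changes of the subunit genes was not tested further, and in bulk tissue fewer cells of a type and less RNA per cell cannot be told apart.

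In Nr2f1 mutants none of the 8 genes was called, neither as lower nor as higher, against 2.54% of all 15600 genes tested, or 1.32% for genes lower in mutants. At an unadjusted p under 0.05 there were 2, *Scn8a* and *Scn3b*, against 24.6% of all genes tested, and DESeq2 also called 0. The differences were small for the 7 genes other than *Scn4b*, with log2 fold changes between -0.13 and 0.15. *Scn3a* had 183, 163 and 180 CPM in Nr2f1 controls 1, 2 and 3 and 176, 158 and 155 CPM in the mutants. *Scn2a1* had 240, 180 and 254 CPM in controls and 222, 226 and 187 CPM in mutants. Both genes overlapped between groups, with control 2 the lowest control library in each case. Their 95% confidence intervals were 0.840 to 1.03 times the control level for *Scn3a* and 0.784 to 1.13 for *Scn2a1*.

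*Scn8a* and *Scn3b* were the 2 genes without overlap between Nr2f1 groups, against 28.6% of all genes tested. *Scn8a* had 113, 107 and 114 CPM in controls and 106, 104 and 99.3 CPM in mutants (log2 fold change -0.11, SE 0.049, edgeR FDR 0.190). *Scn3b* had 272, 255 and 256 CPM in controls and 292, 303 and 274 CPM in mutants (log2 fold change 0.15, SE 0.054, edgeR FDR 0.121). The mutant means were 92.5% of the control level for *Scn8a* and 111% for *Scn3b*.

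The remaining alpha genes also overlapped in the Nr2f1 line. *Scn1a* had 32.1, 34.2 and 37.6 CPM in controls and 33.7, 31.3 and 31.3 CPM in mutants, and *Scn9a* 44.3, 48.6 and 43.3 CPM and 43.9, 38.6 and 42.0 CPM. *Scn2b* had 24.3, 16.9 and 21.7 CPM in controls and 19.2, 21.0 and 20.7 CPM in mutants, with the lowest and the highest library both among the controls. *Scn4b* had 0.214, 0.509 and 0.370 CPM in controls and 0.979, 0.152 and 0.538 CPM in mutants, again with both extremes in 1 group. The median log2 fold change of the 8 genes was -0.095, against 0.014 over all genes tested. Of all genes tested in this line 2.54% were called, the share to set beside the marker counts that follow. The 7 markers of thalamic glutamatergic neurons summed to 1879 to 2071 CPM in controls and 1905 to 2197 CPM in mutants. Among them 1 was called as lower and 1 as higher. The 7 GABAergic markers summed to 126.2 to 132.1 CPM in controls and 122.5 to 238.9 CPM in mutants (0 called). Among 6 oligodendrocyte lineage markers 1 was called as lower and 1 as higher. The summed astrocyte markers were 734 to 755 CPM in Nr2f1 controls and 833 to 969 CPM in mutants (1 of 5 called), microglia markers had 54.6 to 60.8 CPM in controls and 67.4 to 89.8 CPM in mutants (0 of 5 called), and the summed neuron markers had lower values (6920 to 7197 CPM and 6231 to 6804 CPM, 0 of 8 called). Relative to these neuron markers *Scn3b* was higher in Nr2f1 mutants by 0.28 on the log2 scale without overlap, and the other 7 genes overlapped, against 35.5% of all genes tested that did not.

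A model over the 12 libraries with an interaction term tested whether the effects of the 2 mutations differed. None of the 8 genes was called, against 1.44% of all 15989 genes tested, and DESeq2 also called 0. At an unadjusted p under 0.05 there were 3, *Scn3a*, *Scn2a1* and *Scn8a*, against 16.2% of all genes tested. For *Scn3a* the difference, Sox2 effect minus Nr2f1 effect on the log2 scale, was -0.35 (SE 0.11, 95% confidence interval -0.60 to -0.11, edgeR FDR 0.122, and 0.0577 to 0.491 over 19 alternative fits). For *Scn2a1* the difference was -0.42 (SE 0.18, edgeR FDR 0.268) and for *Scn8a* 0.25 (SE 0.11, edgeR FDR 0.302). For *Scn3b* the difference was 0.0082, with a 95% confidence interval of -0.27 to 0.29.

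In the chromosome 2 cluster 1 gene other than the channels was also called as lower in Sox2 mutants. From 200 kb before *Scn3a* to 200 kb beyond *Scn9a*, 4 genes other than the channels were expressed highly enough to be tested, and 1, *Galnt3*, was called in Sox2 mutants, where 8.08% of all genes tested were. *Galnt3*, which encodes a glycosyltransferase that starts the O-glycosylation of proteins, lies between *Scn2a* and *Scn1a*. It had 7.78, 7.88 and 8.49 CPM in Sox2 controls and 3.12, 3.36 and 3.63 CPM in mutants, a clear separation (log2 fold change -1.26, SE 0.13, edgeR FDR 0.000282). In the Nr2f1 line it was not called, with 9.21, 10.6 and 6.76 CPM in controls and 7.43, 7.78 and 6.24 CPM in mutants. *Csrnp3*, named here after its values were seen because it lies between *Scn2a* and *Galnt3*, gave almost the same difference as *Scn2a1* in Sox2 mutants and also just missed the threshold, with -0.51 on the log2 scale (SE 0.11, edgeR FDR 0.0106), whereas its Nr2f1 difference was -0.03 (SE 0.080). The other 2 tested neighbours were not called in Sox2 mutants, *Slc38a11* on the far side of *Scn3a* at 0.33 on the log2 scale (edgeR FDR 0.358) and *Ttc21b* next to *Scn1a* at -0.23 (edgeR FDR 0.187).

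*Scn1a* and *Scn9a*, the members furthest from *Scn3a* in the cluster, had smaller differences in Sox2 mutants than the genes from *Scn3a* to *Galnt3*. Family members other than the 8 genes were left out of this comparison. In the chromosome 9 pair, 6 of 15 neighbours of *Scn2b* and *Scn4b* were tested in the Sox2 line, where 8.08% of all genes tested were called. The only one called was *Il10ra*, the receptor for interleukin 10 on immune cells, which had 1.04, 1.73 and 1.01 CPM in controls and 3.51, 3.57 and 3.65 CPM in mutants, beside the higher microglia markers given above. No neighbour was called in the Nr2f1 line, in either cluster. A pair of long noncoding genes of the tables overlaps the channel genes, *Gm13629* at *Scn9a* and *Gm10684* at *Scn2b*. They had at most 0.237 and 0 CPM in control libraries, and whether the counting used strand is not given in the sources used here.

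**Figure D4:**
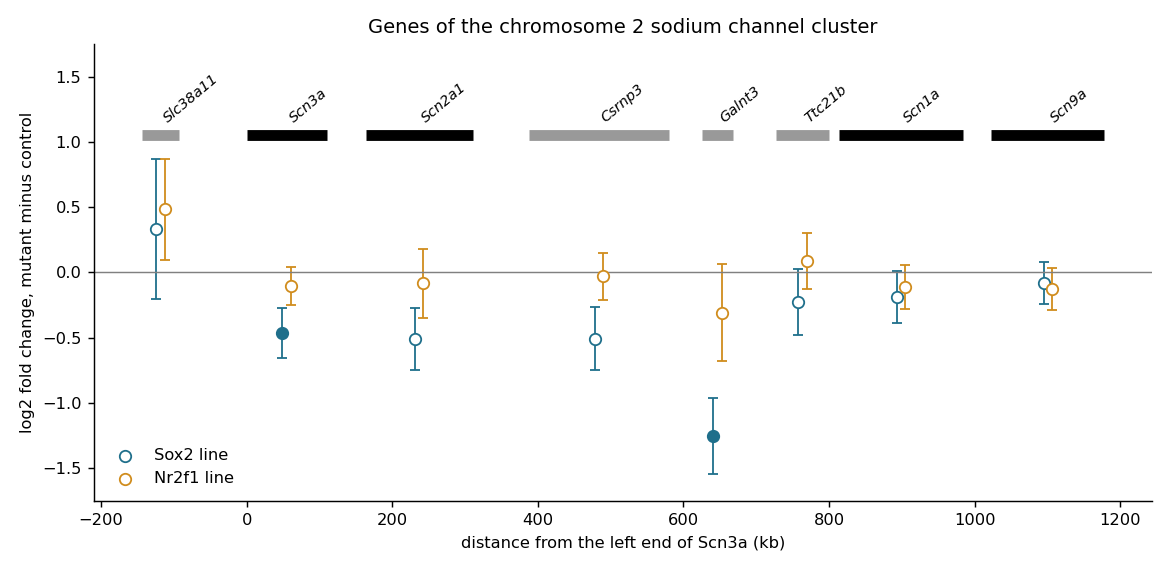
log2 fold change, mutant minus control (y axis), of the tested genes in the chromosome 2 cluster against the distance from the left end of *Scn3a* (x axis, kb); bars are 95% confidence intervals, filled points mark an edgeR FDR below 0.01, and the blocks above show the extent of each gene (black, channel genes). In the Sox2 line the points from *Scn3a* to *Galnt3* lie between -0.46 and -1.26, and those of *Scn1a* and *Scn9a* at -0.19 and -0.08. Family members other than those described here are not plotted.

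Some genes for the proteins that hold sodium channels at the axon initial segment were lower as well. Of 12 scaffold genes of the initial segment and node, 3 were called as lower and 0 as higher in Sox2 mutants, and 2 as lower and 1 as higher in Nr2f1 mutants. The shares called over all genes tested were 8.08% in the Sox2 line (4.19% as lower) and 2.54% in the Nr2f1 line (1.32% as lower). *Ank3*, which encodes the anchor ankyrin-G that binds the alpha subunits directly, fell in Sox2 mutants from 380 ± 22.4 to 257 ± 16.1 CPM (SD, n = 3), a log2 fold change of -0.56 (edgeR FDR 0.00111). In Nr2f1 mutants it was not called, with a log2 fold change of -0.15 (edgeR FDR 0.148, interaction FDR 0.0237). The others called in Sox2 mutants were the spectrin *Sptan1* (log2 fold change -0.37) and *Cntnap2* (-0.71), which organizes potassium channels beside the nodes. In Nr2f1 mutants *Sptan1* (-0.20) and *Cntnap2* (-0.23) were lower but not called. There the adhesion molecule *Nrcam* (-0.38) fell, and *Nfasc* (0.55), which encodes another adhesion molecule of the initial segment, rose. *Nrcam* was about as much lower in Sox2 mutants (-0.42, edgeR FDR 0.0124), without a call, and differed by -0.031 between the mutants (edgeR FDR 0.937). *Nfasc* was not called in Sox2 mutants (0.27, edgeR FDR 0.132).

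Among 18 partners and regulators of the channel protein, 1 fell and 1 rose in each line, against 8.08% (Sox2 line) and 2.54% (Nr2f1 line) of all genes tested. *Fgf13*, which encodes a cytoplasmic protein bound to the tail of the alpha subunit, fell in Sox2 mutants from 265 ± 29.0 to 150 ± 10.3 CPM, a log2 fold change of -0.83 (edgeR FDR 0.000386). In Nr2f1 mutants *Fgf13* was also lower without overlap, but not called (log2 fold change -0.45, edgeR FDR 0.018). Its difference between the mutants was not called either (-0.37, edgeR FDR 0.180). *Fgf14*, a relative of *Fgf13*, had a log2 fold change of -0.24 (edgeR FDR 0.207) in Sox2 mutants and 0.031 (edgeR FDR 0.839) in Nr2f1 mutants. In Nr2f1 mutants *Prrt2*, whose product limits sodium channel activity, fell by 0.40 on the log2 scale and the kinase gene *Camk2a* rose by 0.39. *Prrt2* was the only gene of the list with a called difference between the mutants (0.66, edgeR FDR 0.00395).

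Of 14 listed genes for the sodium leak channel, pumps and exchangers, 13 were in the tables. Of these, 3 fell and 1 rose in Sox2 mutants, against 8.08% of all genes tested, and 0 were called in Nr2f1 mutants, against 2.54%. *Unc80*, a subunit of the leak channel complex, fell from 57.1 ± 4.61 to 34.3 ± 4.10 CPM, a log2 fold change of -0.74 (edgeR FDR 0.0011), and differed between the mutants (-0.98, edgeR FDR 0.000459). The sodium-calcium exchangers *Slc8a1* (-0.76) and *Slc8a3* (-0.41) also fell. Among 12 regulators of sodium channel transcripts only *Nova1*, a neuronal splicing factor, was called in Sox2 mutants, where it rose by 0.50 on the log2 scale, and 0 were called in Nr2f1 mutants. The shares over all genes tested were the same 8.08% and 2.54%. *Rest*, the repressor of neuronal genes known from work on *Scn2a*, had 7.36 ± 0.36 and 9.92 ± 1.90 CPM in Sox2 controls and mutants and 6.23 ± 0.56 and 8.60 ± 1.52 CPM in Nr2f1 controls and mutants. Its groups did not overlap in either line, and it was not called (edgeR FDR 0.0686 and 0.0892).

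Finally, the genes with the pattern most like that of *Scn2a1* and *Scn3a* were sought among 10040 genes with a mean of at least 10 CPM, by the Pearson correlation of log2 CPM over the 12 libraries. The libraries fall into 4 groups and share their depth and tissue make-up, so the values are a description. For *Scn2a1* they were *Vkorc1l1* (0.98), *Camta1* (0.95) and *Kmt2e* (0.95), none of them called in either line. For *Scn3a* they were *Akap9* (0.98), *Pou2f1* (0.98) and *Slc26a1* (0.98), of which *Pou2f1*, a transcription factor of the POU family, was called in Sox2 mutants (log2 fold change -0.67, edgeR FDR 0.00293).

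**Figure D5:**
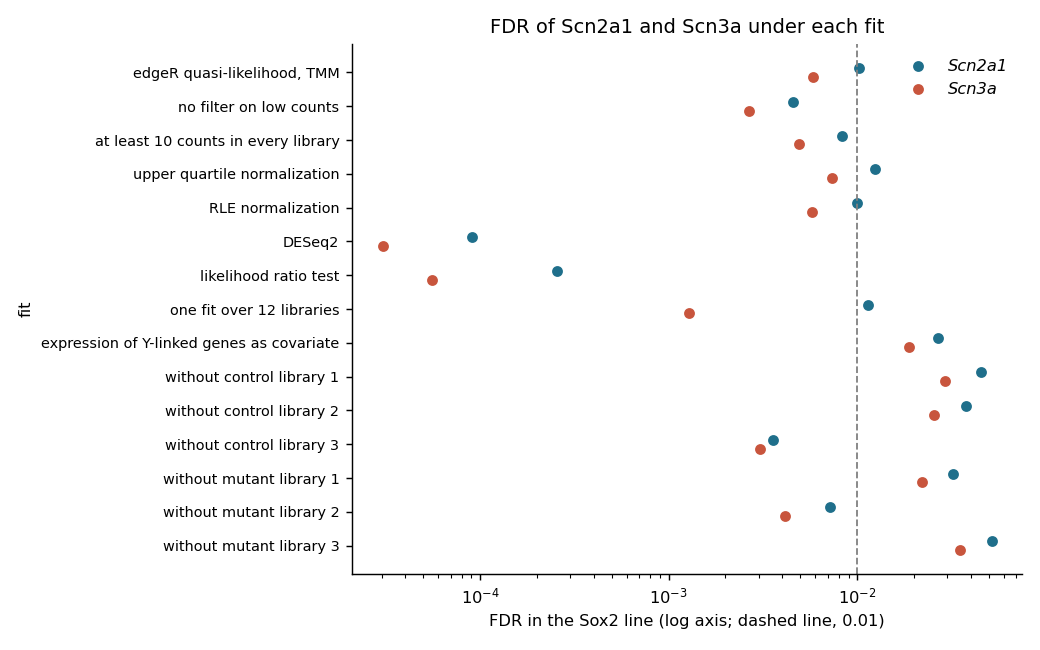
edgeR or DESeq2 FDR (x axis, log scale) of *Scn2a1* and *Scn3a* in the Sox2 line under the 15 fits named on the y axis; the dashed line marks 0.01. *Scn3a* lies left of the line in the first 8 fits and moves to the right of it, up to 0.0350, with the Y-linked covariate and without 4 of the 6 libraries.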

How the data were processed

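RNA of dLGNs from 12 pools of 3 P0 animals was sequenced on an Illumina instrument as paired reads. As the study's methods state, the authors aligned reads with STAR to the RefSeq mouse transcriptome and obtained expression with RSEM, and the labels name build mm10; the versions of these tools are not given in the sources used here. The authors deposited RSEM expected counts, 1 table per line, unnormalized and with reads of shared sequence already divided among genes; they were rounded to whole numbers. Columns were assigned to groups by their names. Genes were filtered with filterByExpr (minimum count 10, minimum total 15), scaled by TMM and tested by quasi-likelihood in edgeR 4.0.16 (R 4.3.3), without covariates, with Benjamini-Hochberg adjustment over all genes tested and a threshold of 0.01. Scaling, test, adjustment and threshold follow the study's methods. The filter on low counts used by the study is not given in the sources used here, so the calls need not be the same. At this threshold the study reports more DEGs in each line than were called here. The interaction used all 12 libraries. DESeq2 1.42.0 was an alternative. The test was checked on simulated counts. Within groups, the 12 pairs of libraries differed beyond sampling noise (chi-square per gene 10.8 to 39.6). CPM per kb used transcript lengths of the reference annotation. The members, the related lists and the markers were chosen with earlier results of these data known. All 8 members were to be named, listed genes where called or differing between mutants (with *Ank3*, *Fgf14* and *Rest* always), and neighbours within 200 kb where called; some listed genes are counted but not reported here. Depth of 39293465 to 50095344 counts per library leaves only *Scn4b* limited by counting.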

Additional observations from a re-analysis of the deposited data

How the results depend on the processing

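The number of subunit genes called in Sox2 mutants was 1, and it became 2 (*Scn2a1* and *Scn3a*) at an FDR below 0.05, without a filter on low counts, with at least 10 counts in every library, and with RLE normalization, DESeq2 or the likelihood ratio test. It became 0 with the Y-linked covariate, which was chosen after seeing the data and lowered the calls over all genes from 1261 to 850. Leaving out 1 library gave 0 to 2. It stayed at 1, *Scn3a*, with upper quartile normalization and with 1 fit over 12 libraries. In the Nr2f1 line and for the difference between the mutants the number stayed at 0 in all fits run. Directions turned only for differences near 0 or at few counts. In Nr2f1 mutants *Scn4b* became -0.14 with the Y-linked covariate. When 1 library was left out, *Scn4b* ranged from -0.090 (without mutant 1) to 1.03, *Scn2b* from -0.18 to 0.067 (without control 1) and *Scn2a1* from -0.22 to 0.011 (without control 3). The difference between the mutants for *Scn3b* became -0.0027 without a filter, -0.024 with the Y-linked covariate, and -0.11 to 0.12 when libraries were left out (below 0 without Sox2 control 3, Sox2 mutant 1, Nr2f1 control 1 or Nr2f1 mutant 3). The cause was not tested. Over all genes 1261 were called in the Sox2 line, but 2468 by DESeq2, 2351 by the likelihood ratio test, 2075 in 1 fit over 12 libraries and 494 to 2161 without 1 library. In the Nr2f1 line 396 were called, but 1112 by DESeq2, 1089 by the likelihood ratio test, 67 with the Y-linked covariate and 133 to 868 without 1 library. The interaction called 231 genes, but 544, 496, 99 and 133 to 308 under these same alternatives. No paired analysis was possible because the table columns do not carry the replicate numbers of the labels.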
